A study of Mus musculus with 4 samples.

Results

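The enzymes that add N6-methyladenosine (m6A) to RNA and those that remove it were followed in mouse 4T1Br breast cancer cells, which derive from the mammary tumour line 4T1 and home to the brain, with a hairpin against the m6A reader YTHDF3 or with a control hairpin. The genes were 7 of the 8 writer genes chosen (Mettl14, Mettl16, Wtap, Zc3h13, Cbll1, Rbm15 and Rbm15b) and both erasers (Fto and Alkbh5). They were taken by gene symbol, from probe sets that the platform annotation assigns to 1 gene. Of 10 genes chosen, 9 had such a probe set, 1 each, out of 22180 genes named on the array. The gene left out was Mettl3, which encodes the catalytic subunit of the main m6A methyltransferase. Its only probe set is listed under both Mettl3 and Tox4, its neighbour in the RefSeq gene order, and therefore gives no value for either gene.

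Both groups were 4T1Br cells that had received lentivirus and been selected with puromycin (the titles name the line 4T1). The shControl group (2 arrays) carried the control hairpin, and the shYTHDF3 group (2 arrays), labelled as a YTHDF3 knockdown, carried the hairpin against YTHDF3. The sources used here give neither the hairpin sequences nor whether the selected cells were a pool or a clone. Expression was read on Affymetrix arrays, and the values are RMA expression on a log2 scale. Nothing in the labels ties the 2 arrays of a group to separate cultures, and the p-values may therefore reflect technical spread only.

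m6A is deposited on messenger RNA in the nucleus by METTL3 bound to METTL14, which helps to hold the RNA substrate. A set of adaptor proteins, among them WTAP, ZC3H13, CBLL1, RBM15, RBM15B and VIRMA, anchors the enzyme in the nucleus and directs it to its sites. METTL16 is a separate methyltransferase with few known substrates, among them a spliceosomal small nuclear RNA and the transcript of the S-adenosylmethionine synthetase gene Mat2a. FTO and ALKBH5 are dioxygenases that take the methyl group off again, and the YTH proteins, YTHDF3 among them, bind the mark and are known for acting on the translation and decay of the marked transcripts. The arrays read RNA abundance; m6A itself, enzyme activity and protein were not measured here.

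None of the 9 writer and eraser transcripts passed the test. The 2 whose means differed most were lower in shYTHDF3: Mettl16 by a log2 change of -0.25 and Alkbh5 by a log2 change of -0.20. The next were Fto at 0.14 and Zc3h13 at 0.14, both with the higher mean in shYTHDF3. The targeted transcript, Ythdf3, had 61.1% of its shControl level in the same fit.

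Ythdf3 read 8.98 and 8.81 in shControl, against 8.21 and 8.16 in shYTHDF3. It fell by 0.71 (SE 0.10, limma adjusted p = 0.0355), and the groups did not overlap. Of 13056 genes tested by limma, 356 passed (2.73%), 167 of them higher (1.28%) and 189 lower (1.45%) in shYTHDF3. That count dropped to 0 when shControl 1 was left out and to 0 when shControl 2 was (2607 and 2448 genes at an unadjusted p under 0.05). Leaving out shYTHDF3 1 gave 5 genes and leaving out shYTHDF3 2 gave 12. Each such fit leaves 1 array in a group, so the spread comes from the other group alone and is taken to hold for both. The Ythdf3 change then ran from -0.79 to -0.63 and did not pass (limma adjusted p from 0.141 to 0.188). With the replicate block, without the filter on dim probe sets and over all probe sets the Ythdf3 change was the same and did not pass (limma adjusted p = 0.0758, 0.0866 and 0.188). In those fits 51, 43 and 0 features passed (2638, 3252 and 3337 at an unadjusted p under 0.05). With 2 arrays a group, an exact two-sided permutation test of 1 value cannot go below p = 0.333, so every test here is limma's moderated test, which draws on the spread of all genes.

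The keratins Krt8 and Krt18 of simple epithelium read 10.04 to 11.13 over the 4 arrays, whereas Epcam (3.80 to 4.05) lay under the background level of 4.28 and Cdh1 (4.37 to 4.61) just above it. The background level is the 95th percentile of the olfactory receptor probe sets. Above it on average were 4 of 5 epithelial markers, 5 of 5 fibroblast markers, 1 of 5 endothelial, 1 of 4 leukocyte and 3 of 5 brain-cell markers. Some of these lay close to it. The shControl and shYTHDF3 means were 4.40 and 4.17 for Col3a1, 4.36 and 4.31 for Cdh5, and 4.33 and 4.36 for Aldh1l1. The summed log2 level of the fibroblast markers was 30.4 to 32.0 in shControl and 27.5 to 28.1 in shYTHDF3. Dcn (-2.65) and Pdgfra (-0.61) were lower by the limma test. The collagen genes Col1a1 (0.096), Col1a2 (-0.054) and Col3a1 (-0.23) overlapped between groups and did not pass, so the lower sum does not hold for the list as a whole. The summed log2 level of the leukocyte markers was 17.5 to 18.3 in shControl and 16.8 to 17.2 in shYTHDF3. Cd68, the only leukocyte marker above background, differed by -0.72 (limma adjusted p = 0.0547), and Ptprc, the marker common to leukocytes, read at most 3.37. The epithelial sum was 35.6 to 35.7 and 36.1 to 36.4, but the keratin gene Krt19 in it differed the other way (-0.53, limma adjusted p = 0.0816). The endothelial sum was 19.0 to 19.1 and 19.1 to 19.5, and the brain-cell sum 22.6 to 23.2 and 22.2 to 22.7. The part of these markers in the values below was not tested. The samples were selected cells of a single line, so these marker names do not show that other cell types were present. Such bulk values cannot tell a change in the share of cells from a change in RNA per cell.

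The 9 writer and eraser transcripts were all well expressed, with means from 2.74 to 4.64 log2 units above the background level, so none was lost to the filter on dim probe sets. Levels are not ranked between genes, because probe sets differ in how brightly they read. By limma 0 of the 9 passed, against 2.73% of all genes tested (1.28% higher and 1.45% lower). Only Mettl16, 1 of the 9, had an unadjusted p under 0.05, against 22.6% of all genes. With an intensity trend in limma's variance model, a setting that called 10.9% of all genes, the count of writers and erasers was again 0. The groups did not overlap in 3 of 9 (1 higher and 2 lower), while 54% of all genes had groups without overlap (28.3% higher and 25.7% lower). The median change of the 9 was -0.0084, beside 0.0057 over all genes. Shifting the arrays to a common median adds the same 0.020 to every gene, which gives 0.012 beside 0.026. Their median absolute change was 0.092, and that of all genes 0.148; it lay under the all-gene value in 7 and above it in 2.

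**Figure D1:**
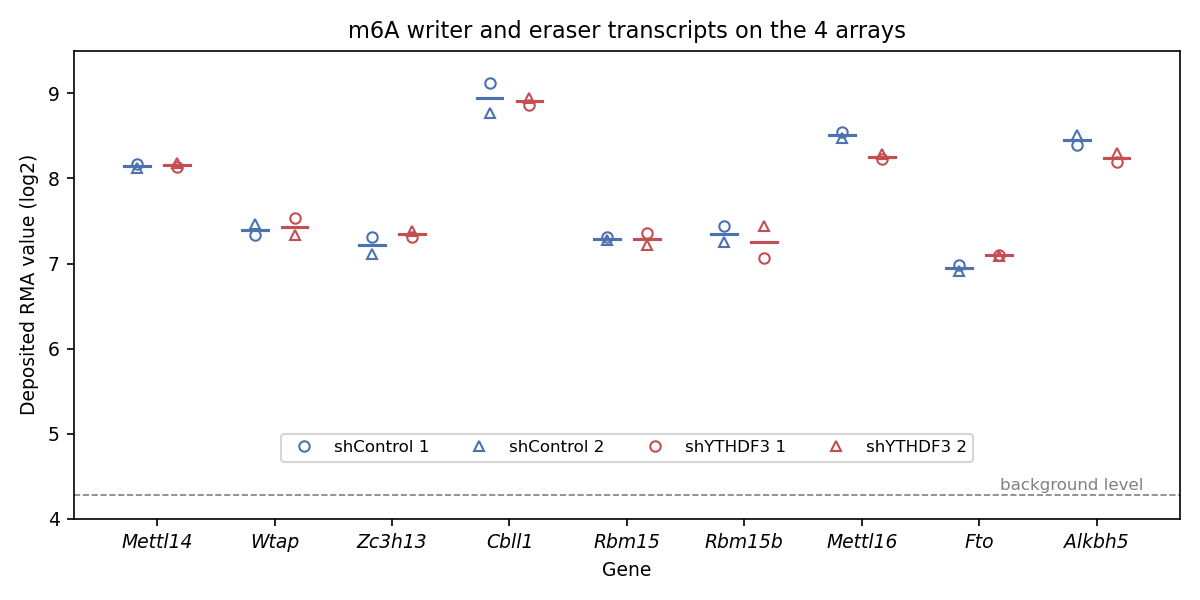
Deposited RMA value (log2, vertical axis) of the 9 writer and eraser transcripts on each array; circles are replicate 1 and triangles replicate 2, blue is shControl and red shYTHDF3, short lines are means of 2 arrays, and the dashed line is the background level of 4.28. The groups separate for Mettl16, Fto and Alkbh5 and overlap for the other genes.

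Mettl14, the partner that METTL3 needs for activity, read 8.17 and 8.13 in shControl, against 8.14 and 8.18 in shYTHDF3. The groups overlapped, and all values lay within a narrow band. The change was 0.0071 (SE 0.09, limma adjusted p = 0.976). Its 95% interval, from -0.22 to 0.23, allows a level between 86.1% and 117% of shControl. Its direction was not stable: the value turned to -0.016 without shControl 2 and to -0.014 without shYTHDF3 2. The probe set shared by Mettl3 and Tox4 (17306289) read 7.99 and 8.07 in shControl, against 8.23 and 8.17 in shYTHDF3. Tested in a fit of all 21867 probe sets above background, it differed by 0.17 (95% interval -0.10 to 0.44, limma adjusted p = 0.483). How much of this signal came from either gene cannot be told apart, and it enters no count here.

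The adaptors of the writer complex overlapped between groups in 5 of 5 cases, while 54% of all genes had groups without overlap. Wtap, which holds the methyltransferase in nuclear speckles, read 7.33 and 7.46 in shControl, against 7.53 and 7.33 in shYTHDF3. The lowest value of each group was the same to 2 decimals, and the change was 0.035 (SE 0.11, limma adjusted p = 0.893). Cbll1, which encodes the E3 ubiquitin ligase Hakai, read 9.12 and 8.77 in shControl, against 8.87 and 8.94 in shYTHDF3. Both shYTHDF3 values lay between the 2 shControl values, whose gap of 0.36 was 1 of the 2 widest replicate gaps among these genes. The Cbll1 change was -0.040 (SE 0.14, limma adjusted p = 0.900), and it turned to 0.14 without shControl 1.

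Zc3h13, a zinc finger protein gene whose product keeps the writer complex in the nucleus, read 7.31 and 7.11 in shControl, against 7.31 and 7.39 in shYTHDF3. The shControl 2 value was the low one, and without it the change was 0.035. Over all 4 arrays the change was 0.14 (SE 0.11, 95% interval -0.13 to 0.40, limma adjusted p = 0.506), and the 0.20 gap between the 2 shControl arrays was wider than the difference between the groups.

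The paralogs Rbm15 and Rbm15b encode RNA-binding proteins that recruit the writer complex to its sites. Rbm15 read 7.31 and 7.28 in shControl, against 7.36 and 7.21 in shYTHDF3, so the shYTHDF3 values lay on either side of both shControl values. Its change was -0.0084 (SE 0.10, limma adjusted p = 0.973), and 0.012 with a common median, by the same shift that all genes take there. Rbm15b read 7.44 and 7.26 in shControl, against 7.07 and 7.45 in shYTHDF3, where the 2 arrays stood 0.38 apart, the widest replicate gap of the 9 genes. The Rbm15b change of -0.092 (SE 0.15, 95% interval -0.46 to 0.28, limma adjusted p = 0.767) came with the highest standard error of the 9, and it turned to 0.096 without shYTHDF3 1. Its level could lie between 72.5% and 121% of shControl.

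Mettl16, the separate methyltransferase, had the largest difference of the 9. It read 8.54 and 8.47 in shControl, against 8.23 and 8.28 in shYTHDF3. Both shYTHDF3 arrays lay under both shControl arrays, and the replicate gaps, 0.068 and 0.057, were small beside the difference. The group means were 8.51 ± 0.05 and 8.25 ± 0.04 (SD, n = 2 each), a change of -0.25 (SE 0.09), or 83.9% of the shControl level. The 95% interval, from -0.48 to -0.03, left out 0, as it did for no other of the 9 genes in this fit. Mettl16 did not pass over all genes (unadjusted p = 0.0344, limma adjusted p = 0.186; adjusted p = 0.0758 with an intensity trend and 0.267 with a replicate block). Of all genes tested, 73.1% had a smaller absolute change. Over the alternative settings the change ran from -0.29 to -0.22.

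The erasers differed in opposite directions, and neither passed. Fto, the demethylase that also acts on the cap-adjacent form of the mark, read 6.99 and 6.92 in shControl, against 7.10 and 7.09 in shYTHDF3. Both shYTHDF3 arrays lay above both shControl arrays, with a gap of only 0.0061 between them. The change was 0.14 (SE 0.09, 95% interval -0.08 to 0.37, limma adjusted p = 0.400), a level between 94.6% and 129% of shControl.

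Alkbh5, a nuclear demethylase of messenger RNA, read 8.39 and 8.51 in shControl, against 8.20 and 8.29 in shYTHDF3. Both shYTHDF3 arrays lay lower than both shControl arrays. The means were 8.45 ± 0.08 and 8.25 ± 0.07 (SD, n = 2 each), a change of -0.20 (SE 0.10, 95% interval -0.45 to 0.04, limma adjusted p = 0.289), or 86.9% of shControl. With an intensity trend the interval ran from -0.39 to -0.01 and the adjusted p was 0.169. Whether the changes of the 2 erasers differ from each other was not tested.

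**Figure D2:**
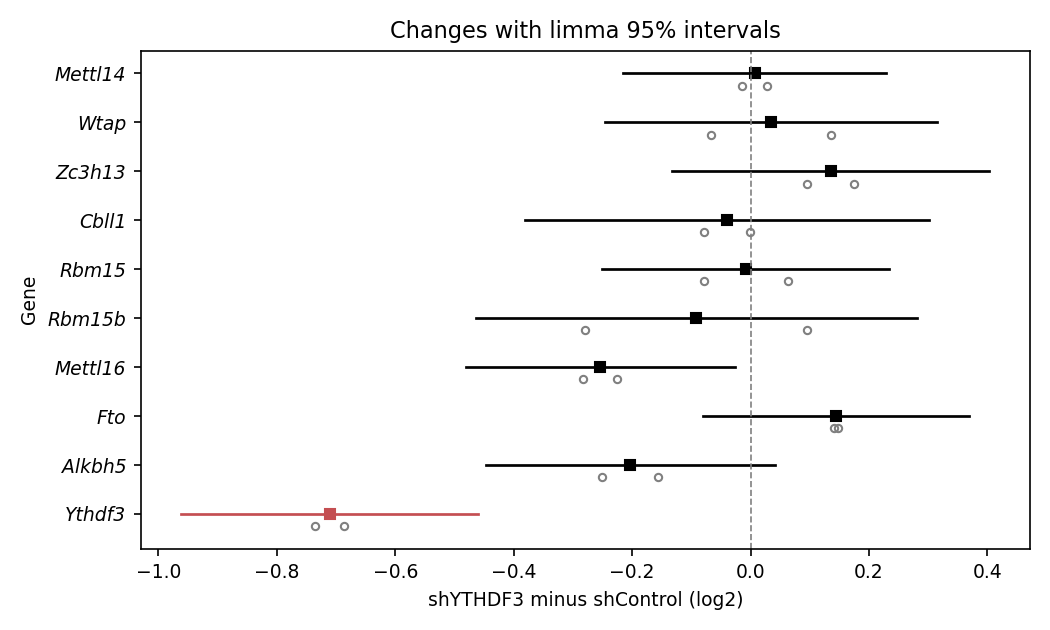
Change in shYTHDF3 (log2 difference from shControl, horizontal axis) of the 9 genes and of Ythdf3; squares are differences of group means, lines limma's 95% intervals, open circles the 2 shYTHDF3 arrays minus the shControl mean, and red marks a gene past the limma threshold. The intervals of all but Mettl16 among the 9 take in 0, and none of the 9 reaches as low as the Ythdf3 change of -0.71.

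Across the 9 genes the single intervals spanned levels from 71.7% to 132% of shControl. These bounds are gene by gene, under limma's variance model. Like the p-values, they rest on 2 arrays a group and may reflect technical spread only. In the main limma fit, with default settings, the smallest absolute change called in the whole table was 0.51, beyond every member's interval. Differences of the size seen here thus lay under what that fit called. With an intensity trend limma called smaller changes, such as 0.31 in Adk (limma adjusted p = 0.0352). The absolute change was wider than both replicate gaps in 3 genes, Mettl16, Fto and Alkbh5, and not in the other 6. These 3 are the genes whose groups did not overlap, while 54% of all genes had groups without overlap. How many of all genes had a change wider than both gaps was not counted. The median deviation of the 9 genes from their own means was 0.032 on shControl 1 and -0.027 on shControl 2. It was -0.017 on shYTHDF3 1 and 0.018 on shYTHDF3 2. Opposite shifts can cancel in such a median, so it does not show whether single genes differ between groups. On shControl 1, 7 of 9 genes were above their own mean, and on shControl 2, 3 of 9. By this median the 2 control arrays lay further apart than any control array did from a shYTHDF3 array.

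The genes around this pathway were counted in 5 lists, of which 42 genes were tested, and 1 passed by limma, the targeted Ythdf3 itself. Without Ythdf3, 0 of 41 passed. An unadjusted p under 0.05 was reached by 7, 6 with the higher mean in shYTHDF3 and 1 with the lower, against 22.6% of all genes. Limma with an intensity trend called 4 of the 41, against 10.9% of all genes. Neither of these shares, which take both directions together, was above that of all genes. By direction, the 6 higher at an unadjusted p under 0.05 stand beside 1596 of all 13056 genes. The groups did not overlap in 16 of the 41 with shYTHDF3 higher and in 9 with it lower. Of all genes, 28.3% were higher and 25.7% lower without overlap. The higher share of the 41 was thus above that of all genes by both counts, which was not tested. The median change of the 41 was 0.068, against 0.0057 over all genes tested.

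Of the other m6A methyltransferases and their partners, 0 of 5 tested passed by limma, nor any at an unadjusted p under 0.05 or with an intensity trend (median 0.054). Mettl4, a methyltransferase of the same family, read 7.42 and 7.03 in shControl, against 7.54 and 7.50 in shYTHDF3, which is a change of 0.29 (limma adjusted p = 0.299). Zcchc4, which methylates ribosomal RNA, read 7.69 and 7.38 in shControl, against 7.33 and 7.35 in shYTHDF3, which is a change of -0.19 (limma adjusted p = 0.418). In both genes 1 shControl array lay close to the shYTHDF3 values. Virma, the large scaffold subunit of the writer complex, named here for that role and with its values known, read 8.12 and 8.13 in shControl, against 8.03 and 8.09 in shYTHDF3. Its change of -0.066 had a 95% interval of -0.29 to 0.16 (limma adjusted p = 0.715).

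Of 10 m6A readers tested, Ythdf3 fell and 9 did not pass. Without Ythdf3 the median was 0.058. Ythdf2 was not on the list. Igf2bp1 and Igf2bp2 had no probe set assigned to them alone, and Igf2bp3 lay under the background level on average. The intensity trend called Ythdf3 and Fmr1, which encodes an RNA-binding protein that recognises marked transcripts. Fmr1 read 9.47 and 9.18 in shControl, against 9.69 and 9.73 in shYTHDF3, which is a change of 0.39 (limma adjusted p = 0.150, or 0.0315 under that trend).

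Genes that make or clear S-adenosylmethionine, the methyl donor of all these writers, differed in both directions, and 0 of 7 passed by limma. The list median was -0.038, and an unadjusted p under 0.05 was reached by 2, 1 in each direction, beside 22.6% of all genes. Mtr, methionine synthase, read 6.90 and 6.97 in shControl, against 6.66 and 6.56 in shYTHDF3, which is a change of -0.32 (limma adjusted p = 0.132). Adk, adenosine kinase, which clears the adenosine released after each methyl transfer, read 8.85 and 8.74 in shControl, against 9.05 and 9.15 in shYTHDF3, which is a change of 0.31 (limma adjusted p = 0.147, or 0.0352 under that trend). The groups overlapped in none of the 7 genes, with 3 higher and 4 lower in shYTHDF3. Of all genes, 54% had groups without overlap (28.3% higher and 25.7% lower). Mat2a, whose transcript METTL16 methylates, was on this list of 8 genes, but the annotation gave it no probe set. It therefore has no value here.

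Among the other AlkB-family dioxygenases, relatives of the 2 erasers that act on DNA, RNA or protein, 0 of 6 passed by limma or with an intensity trend. The groups did not overlap in 4, all higher in shYTHDF3, where 28.3% of all genes were higher without overlap, and the median was 0.15. Alkbh7, a mitochondrial member, read 6.40 and 6.11 in shControl, against 6.72 and 6.69 in shYTHDF3, which is a change of 0.45 (unadjusted p = 0.0116, limma adjusted p = 0.115). Alkbh4 differed by 0.19 (limma adjusted p = 0.374).

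Of 14 other METTL-family methyltransferases, 0 passed by limma. An unadjusted p under 0.05 was reached by 3, all with the higher mean in shYTHDF3, and the median was 0.076. At that p 1596 of all 13056 genes tested were higher and 1354 lower, and only the 2 directions together make 22.6%. Mettl26 read 8.11 and 8.09 in shControl, against 8.49 and 8.49 in shYTHDF3, which is a change of 0.39 (limma adjusted p = 0.0788). Mettl9, a histidine methyltransferase gene, read 9.35 and 9.27 in shControl, against 9.76 and 9.64 in shYTHDF3, which is a change of 0.39 (limma adjusted p = 0.0995). In both genes the shYTHDF3 arrays lay above the shControl arrays. Both passed with an intensity trend (limma adjusted p = 0.0143 and 0.0122), a setting that called 10.9% of all genes. The second Mettl9 probe set, near the background at 4.40 to 4.81, differed by -0.23, so the probe sets of that gene disagreed in direction.

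**Figure D3:**
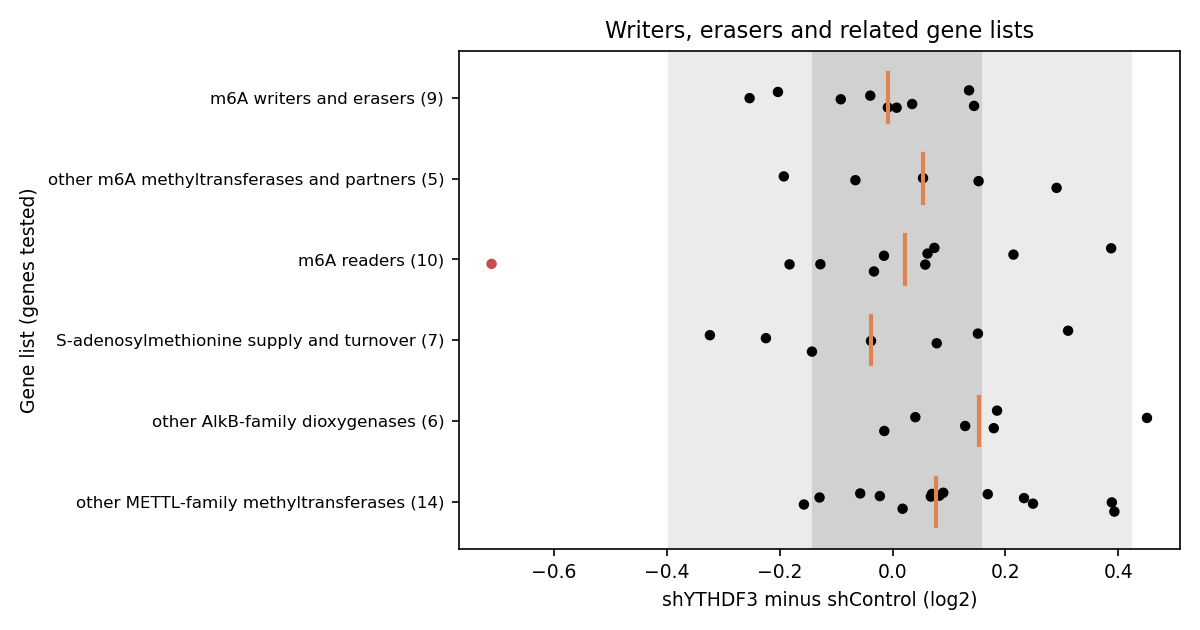
Change in shYTHDF3 (log2 difference from shControl, horizontal axis) of each gene tested in the writers and erasers and in 5 related lists, with the number tested in brackets; orange bars are list medians, red is a gene past the limma threshold (Ythdf3), and grey bands run from the 5th to the 95th (light) and from the 25th to the 75th (dark) percentile of all 13056 genes. The 9 writers and erasers all lie inside the light band, from -0.25 to 0.14.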

How the data were processed

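The deposited table held RMA values for 41345 probe sets on 4 arrays, normalized by the authors per the submitters' processing notes; the sources used here name no software or version. The deposited values were taken as log2, which RMA gives and the range fits; no source used here gives the log base. RMA makes array distributions alike, so a shift of most genes one way would not be seen. The platform annotation gave 23521 probe sets 1 symbol, 1814 several and 16010 none; 23328 of the first matched RefSeq (GRCm38.p6) by Entrez identifier. A gene took its probe set with the highest mean. The 13056 genes above background were tested with limma 3.58.1 in R 4.3.3 (lmFit, eBayes, two-sided, Benjamini-Hochberg over all genes, threshold 0.05). The step was tested on simulated data. Array number limits precision. Alternatives changed the filter, variance model, scaling, probe set choice, replicate block and arrays used. Beyond all members and Ythdf3, each list's genes past the threshold were named or, with none, the 2 largest absolute changes; Virma, Fmr1 and the markers fall outside that rule. Members and lists were chosen with earlier results of these data known. Figures used matplotlib 3.10.9.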

Additional observations from a re-analysis of the deposited data

How the results depend on the processing

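In 13 alternative settings none of the 9 writers and erasers passed the limma test (adjusted p from 0.0758 to 0.999). In 3 of these settings limma called 0 genes of any kind, so that not passing says nothing there. At an unadjusted p under 0.05 there were at most 2 of the 9, and 0 when any 1 array was left out. Of the 13 settings, 7 repeat the estimates of these genes and can move only the p-values. In the other 6, 9 of 54 values turned in direction, in 5 genes. Where groups do not overlap, as for Mettl16, Fto and Alkbh5, leaving out an array cannot turn the direction. Rbm15 turned to 0.012 with a common median, which adds 0.020 to every gene. With 1 array left out, Mettl14 ran from -0.016 to 0.030, Wtap from -0.067 to 0.14, Cbll1 from -0.22 to 0.14, Rbm15 from -0.079 to 0.062 and Rbm15b from -0.28 to 0.096.

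The Ythdf3 change of -0.71 did not pass without the filter (limma adjusted p = 0.0866), over all probe sets (0.188) or with the replicate block (0.0758). It ran from -0.79 to -0.63 with 1 array left out. Genes called by limma numbered 43 without the filter, 1426 with an intensity trend, 1465 with a robust trend, 157 with the mean of all probe sets, 51 with the replicate block, 0 over all probe sets (3337 at an unadjusted p under 0.05) and 0 to 12 with 1 array left out. Leaving out an array lowers the residual degrees of freedom, and dropping the filter or testing all probe sets adds tests. The sample titles tie same-numbered arrays by their number only. Deviations of these arrays from group means correlated at -0.066 over 13056 genes, which are not independent replicates. With 2 arrays a group both pairs give this same value, and it cannot tell whether same-numbered arrays were handled together.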
